A study of Mus musculus with 2 samples.

Results

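The 6 mouse genes Mirlet7a-1, Mirlet7a-2, Mirlet7c-1, Mirlet7c-2, Mirlet7f-1 and Mirlet7f-2 encode let-7a, let-7c and let-7f, each from a pair of numbered copies. The rule that picks them uses the gene name and no count, and they are 6 of the 2202 microRNA genes counted. Their levels were measured by microRNA sequencing in hearts of male B6CASTF1/J mice aged 10 days, first-generation hybrids of C57BL/6J and the wild-derived CAST strain. There were 2 libraries of total RNA, with a labelled size range of under 30 and numbered as biological replicates 1 and 2. They form 1 group with no treatment named, so no contrast between conditions was possible. The labels name a separate heart sample for each library but the same donor record, and a spread between them may in part be technical. Because heart tissue was used, more cells of a type and more RNA per cell cannot be told apart.

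The let-7 microRNAs are a deeply conserved family known for developmental timing. They are scarce in embryonic cells, where LIN28 blocks their processing, and build up as tissues differentiate, and in the heart they have been linked to the maturation of cardiomyocytes. A let-7 gene is transcribed into a primary RNA, cut to a hairpin by Drosha and then by Dicer to a 5p and a 3p arm. The 5p arm is the usual guide, and its seed, bases 2 to 8, leads the silencing complex to messenger RNAs. A read of a mature arm that is encoded in several places has no single origin in the genome, which bears on how the copies can be counted.

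The 5p arms of the duplicated forms are shown first because they are the molecules that both copies of a pair make in common. Sequences are from RefSeq (GRCm38.p6), where all 6 genes were found with hairpins identical to those of GENCODE M21, and capitals mark the seed.
let-7a-5p: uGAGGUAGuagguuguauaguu
let-7c-5p: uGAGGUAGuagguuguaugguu
let-7f-5p: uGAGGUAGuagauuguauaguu

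These 3 arms of 22 bases have 1 seed, which is also that of the 6 single-copy arms compared (let-7b, let-7d, let-7e, let-7g, let-7i and miR-98). Counted from the 5' end of let-7a, let-7c differs by the single substitution A19G and let-7f by G12A. The arms of single-copy genes lie near as well. Let-7e differs from let-7a at 1 base (U9G), let-7b, let-7d, let-7g and miR-98 at 2 bases each and let-7i at 4. The 5p arm is listed in RefSeq for 5 of the 6 genes. For Mirlet7a-2 it was located by its sequence inside the hairpin.

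What tells the copies of a pair apart on the 5p side are the bases beside the arm. Each line below gives 3 bases before the arm, the arm and 5 bases after it, and capitals mark the positions at which the copies differ.
Mirlet7a-1: ggAugagguaguagguuguauaguuuUAGg
Mirlet7a-2: ggUugagguaguagguuguauaguuuAGAg
Mirlet7c-1: ggUugagguaguagguuguaugguuuAgAg
Mirlet7c-2: ggGugagguaguagguuguaugguuuUgGg
Mirlet7f-1: gAGugagguaguagauuguauaguuGuGgg
Mirlet7f-2: gGAugagguaguagauuguauaguuUuAgg

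Among the 6 hairpins, a let-7f read that starts with the arm and runs 1 base past it, to 23 bases, matches 1 copy only. For let-7a and let-7c the first base after the arm is U in both copies, so a read must reach 24 bases before it matches 1 copy. That base is also U in Mirlet7f-2, whereas it is G in Mirlet7f-1. In all 3 pairs the base just before the arm differs between the copies.

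The 3p arms, the usual passenger strands, are shown because most of them do differ between copies. Capitals again mark bases 2 to 8.
let-7a-1-3p: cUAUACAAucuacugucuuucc
let-7c-2-3p: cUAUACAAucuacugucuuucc
let-7f-1-3p: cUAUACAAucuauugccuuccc
let-7f-2-3p: cUAUACAGucuacugucuuuc
let-7c-1-3p: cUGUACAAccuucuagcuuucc
let-7a-2-3p: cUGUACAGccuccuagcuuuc

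The 3p arm of Mirlet7a-1 is identical to that of Mirlet7c-2, so neither arm of these genes is found in 1 hairpin only. The other 4 genes each have a 3p arm found in no other counted hairpin. Within pairs, the 3p arms differ at 6 of 21 aligned bases for let-7a, 5 of 22 for let-7c and 4 of 21 for let-7f. Mirlet7f-2 differs from Mirlet7a-1 and from Mirlet7c-2 at 1 of 21 bases, fewer than from Mirlet7f-1, its own copy.

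Windows of 22 bases were looked up in all other counted hairpins, leaving out those that overlap the gene itself. In Mirlet7a-1 66 of 73 windows (90.4%) were found once, and in Mirlet7c-2 67 of 74 (90.5%). In Mirlet7a-2 73 of 75 (97.3%) were found once, in Mirlet7c-1 71 of 73 (97.3%), in Mirlet7f-1 67 of 68 (98.5%) and in Mirlet7f-2 61 of 62 (98.4%). All shared windows of the 6 genes began within 3 bases of the start of an arm. In each of the 6 single-copy let-7 hairpins all windows were found once. Whole genome sequence was not used here, so matches outside microRNA hairpins are not covered.

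**Figure D1:**
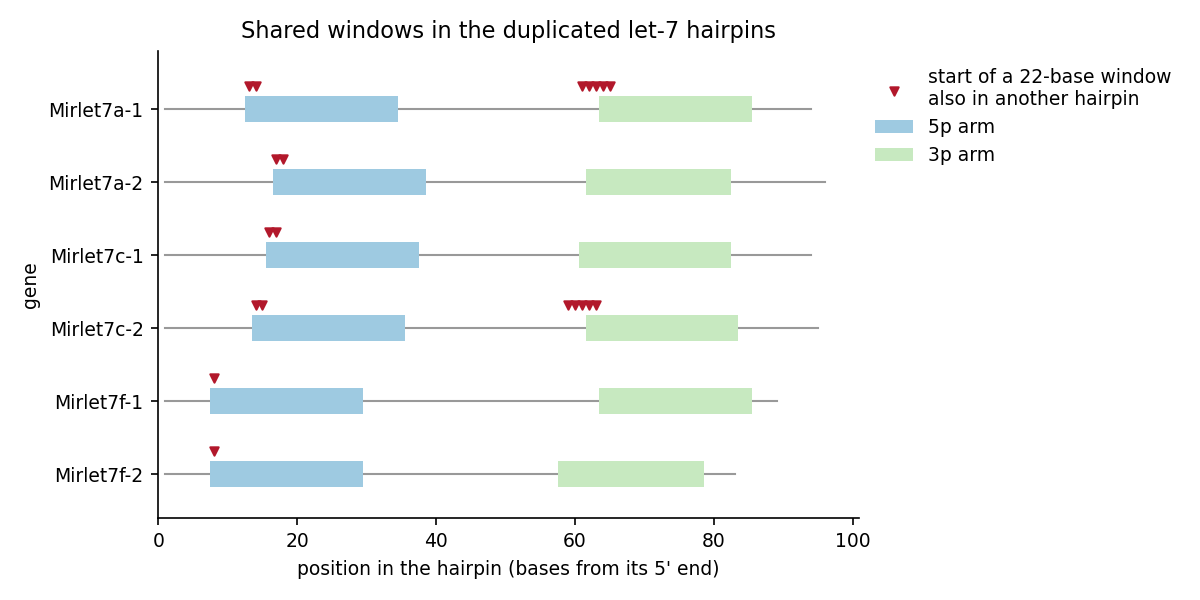
Map of the 6 hairpins, with position in bases from the 5' end on the x axis, the 5p arm in blue, the 3p arm in green and red marks at the start of each 22-base window that also lies in another counted hairpin. All 6 hairpins have such windows at the 5p arm, and Mirlet7a-1 and Mirlet7c-2 also at the 3p arm.

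The 6 genes lie at 5 places in mm10. Mirlet7a-1 (ENSMUSG00000065421.3; chromosome 13, 48538179 to 48538272, minus strand) and Mirlet7f-1 (ENSMUSG00000105621.1; chromosome 13, 48537829 to 48537917, minus strand) are 261 bases apart, in exonic sequence of the long noncoding RNA 6720427I07Rik, together with Mirlet7d. Mirlet7a-2 (ENSMUSG00000092770.1; chromosome 9, 41536716 to 41536811, plus strand) lies between Mir100 and Mir125b-1 in introns of the noncoding genes 3110039I08Rik and Gm49317. Mirlet7c-1 (ENSMUSG00000065557.3; chromosome 16, 77599657 to 77599750, plus strand) is 656 bases from Mir99a, in an intron of the noncoding gene Mir99ahg and, on the opposite strand, of Gm11146. Mirlet7c-2 (ENSMUSG00000065608.1; chromosome 15, 85706603 to 85706697, plus strand) is 621 bases from Mirlet7b, in exonic sequence of Lncppara. Mirlet7f-2 (ENSMUSG00000065602.1; chromosome X, 151912346 to 151912428, plus strand) is 785 bases from Mir98 in an intron of Huwe1, which encodes a ubiquitin ligase.

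Across the series, reads on the strand of the gene over all 2202 genes numbered 3748432 in replicate 1 and 6305782 in replicate 2. Levels are given as CPM, counts per 1000000 of these reads, and a gene with at least 10 counts in both libraries is called detected (340 genes). A count of 0 allows up to 3 counts, which is 0.8003 CPM in the first library and 0.476 CPM in the second. Intervals and limits cover counting error only, since amplified reads are not independent molecules. Reads with several mapping positions stood in a row of their own, 3254982 in replicate 1 and 8191878 in replicate 2, and belong to no gene. The tissue label was checked with marker genes. All 7 cardiac muscle genes had counts, together 0.832% of the total in replicate 1 and 1.25% in replicate 2, mostly from Mir208a, Mir208b and Mir499. Mir1a and Mir133a, defining microRNAs of cardiac muscle that also come from paired genes, stayed between 0.534 and 99.6 CPM per gene. Of genes marking other cells, 3 endothelial ones held 8.97% and 10.1%, 2 of smooth muscle 4.48% and 5.33%, 2 erythroid ones 0.991% and 0.870%, and 3 of leukocytes 0.157% and 0.152%. A liver gene held 0.00579% and 0.00777%, and 6 neural genes had 2 counts in each library, with 4 of them at 0 in both.

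All 6 duplicated let-7 genes were detected, but at low levels for this family, and Mirlet7f-2 held most of their counts. Mirlet7f-2 had 19993 counts (5334 CPM) in replicate 1 and 42535 counts (6745 CPM) in replicate 2, a mean of 6040 ± 998 CPM (SD, n = 2, as for all SDs here). Mirlet7c-2 had 4603 counts (1228 CPM) and 5249 counts (832 CPM), a mean of 1030 ± 280 CPM. Mirlet7f-2 was thus above every other copy in each library, and Mirlet7c-2 came second in each.

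Mirlet7a-1 had 2389 counts (637 CPM) in replicate 1 and 2539 counts (403 CPM) in replicate 2, a mean of 520 ± 166 CPM. Mirlet7c-1 had 1815 counts (484 CPM) and 2430 counts (385 CPM), a mean of 435 ± 69.9 CPM. Mirlet7a-1 was the higher one within each library, but its value in replicate 2 lay below that of Mirlet7c-1 in replicate 1, so the values overlapped between libraries. Mirlet7a-2 had 1065 counts (284 CPM) and 1296 counts (206 CPM), a mean of 245 ± 55.6 CPM, below both values of Mirlet7c-1. Mirlet7f-1 had 665 counts (177 CPM) and 1323 counts (210 CPM), a mean of 194 ± 22.9 CPM. Mirlet7f-1 was the lowest of the 6 in replicate 1, and Mirlet7a-2 in replicate 2, so these neighbours did not differ beyond their spread. Dividing the CPM by the hairpin length, 83 to 96 bases, left all 6 genes in the same order of means.

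Among the 2202 genes Mirlet7f-2 ranked 30 in replicate 1 and 26 in replicate 2 by count. Mirlet7c-2 ranked 67 and 77, Mirlet7a-1 88 and 92, and Mirlet7c-1 93 and 96. Mirlet7a-2 ranked 118 and 128, and Mirlet7f-1 135 and 126. The median of the 6 means was 477 CPM, beside 80.0 CPM over all detected genes, so the group lay above the middle of the detected genes.

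The single-copy let-7 genes stood far above the duplicated ones. Mirlet7b, Mirlet7d, Mirlet7e, Mirlet7g, Mirlet7i and Mir98 had a median mean of 30048 CPM. Together they held 26.7% of all counts in replicate 1 and 20.6% in replicate 2, whereas the 6 duplicated genes held 0.814% and 0.878%. The exact binomial 95% intervals of these small shares were 0.805% to 0.824% and 0.871% to 0.885%. Of the counts of both sets, the duplicated genes took 2.96% in replicate 1 and 4.09% in replicate 2, so the single-copy set was 32.8-fold and 23.4-fold higher. The sets overlapped only through Mirlet7f-2, which exceeded Mir98 (2380 and 2385 CPM) in each library. Mirlet7f-2 lay below Mirlet7e in each (9531 and 6917 CPM), by little in replicate 2.

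Reads with several mapping positions are counted for no gene, and their part in this difference was not tested. For every count of a duplicated let-7 gene, the libraries held 107 such reads in replicate 1 and 148 in replicate 2. The tables do not say from which hairpins these reads came. The values above are therefore levels of reads assigned to single copies, not of mature let-7a, let-7c or let-7f in the tissue.

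**Figure D2:**
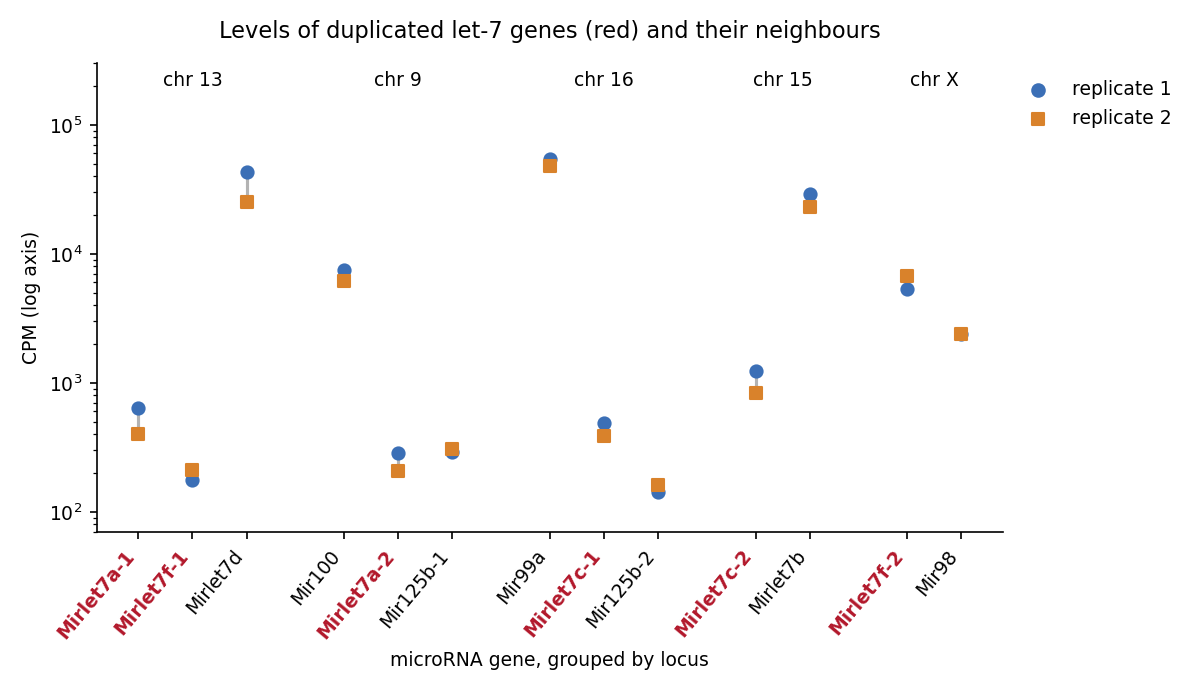
CPM on a log axis for the 6 duplicated let-7 genes (red names) and the microRNA genes beside them at the same 5 loci, with replicate 1 as circles, replicate 2 as squares and a line joining them. Mirlet7f-2 is the highest duplicated gene in both libraries, and Mirlet7d, Mir99a, Mir100 and Mirlet7b stand at least 23.6-fold above the duplicated genes at their loci.

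Within each pair the counts were uneven, and the same copy led in both libraries. Shares in this and the following paragraphs carry exact binomial 95% intervals. Mirlet7a-1 held 69.2% (67.6% to 70.7%) and 66.2% (64.7% to 67.7%) of the let-7a counts in replicates 1 and 2, so it had 2.24 and 1.96 times the counts of Mirlet7a-2. Mirlet7c-1 held 28.3% (27.2% to 29.4%) and 31.6% (30.6% to 32.7%) of the let-7c counts. Here the second copy led, with 2.54 and 2.16 times the counts of the first. The leading copies of let-7a and let-7c, Mirlet7a-1 and Mirlet7c-2, are those that have no arm of their own.

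The let-7f pair was the most uneven of the 3. Mirlet7f-1 held 3.22% (2.98% to 3.47%) and 3.02% (2.86% to 3.18%) of its counts. Mirlet7f-2 therefore had 30.1 and 32.2 times the counts of Mirlet7f-1. Of all counts in the 6 genes, Mirlet7f-2 alone took 65.5% in replicate 1 and 76.8% in replicate 2.

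The shares were compared between the libraries with Fisher's exact test, two-sided and adjusted over the 3 pairs, a comparison of libraries and not of conditions. The share of Mirlet7c-1 was 3.36 percentage points higher in replicate 2 (adjusted p = 4.42e-05), and that of Mirlet7a-1 fell by 2.96 points (adjusted p = 0.0110). For let-7f the share of Mirlet7f-1 fell by 0.203 points and did not pass (adjusted p = 0.164). These steps are small beside the distance of each pair from equal shares.

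Other microRNAs encoded by pairs of genes served as a measure of how uneven copies are in these libraries. There were 25 pairs of genes whose hairpins hold the same listed mature form, with at least 20 counts per pair in each library. The leading gene took a median of 68.2% of the counts of its pair, from 53.7% to 99.5%. Let-7f, at a mean of 96.9%, stood at rank 5, below Mir3074, Mir181b, Mir199a and Mir92, while let-7c (70.04%) and let-7a (67.7%) lay near the median. The Mir3074 and Mir199a pairs had only 94 and 73 counts in replicate 1, against 20658 for let-7f. Both fall out of the ranking at a limit of 100 counts. The 25 pairs include Mirlet7c-2 with Mirlet7a-1 through their common 3p arm, of which Mirlet7c-2 took 66.6%. The leading share differed between the libraries by a median of 3.61 points over the 25 pairs, which is above the differences of the 3 let-7 pairs. This order depended on the count limit, since pairs with few counts carry more counting error. Over the 15 pairs with at least 100 counts in each library the median was 3.03 points, below the 3.36 points of let-7c. Both medians include the let-7 pairs.

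**Figure D3:**
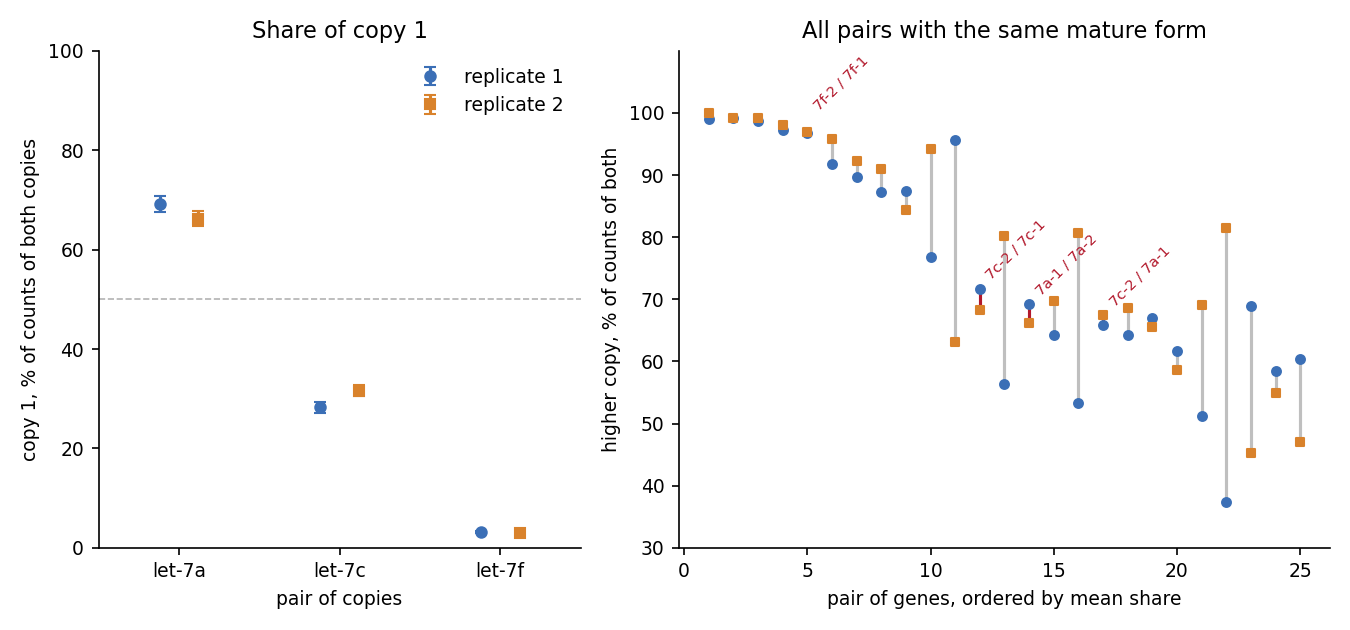
Left, percent of a pair's counts held by copy 1, with exact 95% intervals, for let-7a, let-7c and let-7f in replicate 1 (circles) and replicate 2 (squares); the dashed line marks equal shares. Right, percent held by the leading gene of each of 25 pairs with the same mature form, ordered by the mean of the libraries, where let-7f stands at rank 5 and let-7c and let-7a lie near the median of 68.2%.

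How many genes share a mature form, and how they compare with the rest, depended on the definition. RefSeq lists an identical mature form for 92 counted genes, of which 40 (43.5%) were detected, with 1.52% of all counts in replicate 1 and 1.63% in replicate 2. The 926 genes with a listed form of their own held 76.6% and 75.7%, with 267 (28.8%) detected. The median level of the detected genes was 46.3 CPM in the first set and 68.3 CPM in the second. The order of detection turned with wider definitions, and so did that of the medians of the mean CPM. Those definitions also took in genes with no listed form, so the genes compared changed along with the meaning of sharing. Of all 2202 genes 15.4% were detected, and of the 1018 with a listed form 30.2%. Among genes with 20 bases in common with another hairpin 6.99% were detected, against 23.7% of the others, with medians of 86.3 and 67.8 CPM, and that set held 25.0% and 26.4% of all counts. Mirlet7a-2 is not in the set of 92, because its 5p arm is not listed. When a mature form lying inside another hairpin also counted as shared, 43 of 339 genes (12.7%) were detected, against 264 of the 908 others (29.1%). The 339 include genes with no listed form, whereas all of the 908 have one. All 43 detected genes have a listed form, so the genes without one only lower the share of the set. Over genes with a listed form alone the order of detection did not turn. The medians of the mean CPM were 82.3 and 67.5 CPM, and the set held 1.57% and 1.67% of all counts. Within each library, however, the median of this set stayed below that of the others. It was 77.9 against 78.8 CPM in replicate 1 and 37.3 against 64.0 CPM in replicate 2. The 6 let-7 genes, all in this set, made up 52.0% of its counts in replicate 1 and 52.5% in replicate 2, and 3.26% and 3.32% of those of the set defined by 20 bases.

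The copies that sit in microRNA clusters were low beside most of their neighbours, although such neighbours are thought to come from 1 primary transcript. Mirlet7a-1 and Mirlet7f-1 had 1.46% and 0.410% of the counts they shared with Mirlet7d in replicate 1, and 1.57% and 0.822% in replicate 2. Mirlet7d was thus 67.6-fold and 62.9-fold above Mirlet7a-1, and 243-fold and 121-fold above Mirlet7f-1. Mirlet7c-1 was exceeded 112-fold and 124-fold by Mir99a, and Mirlet7a-2 26.4-fold and 29.9-fold by Mir100, of the miR-99/100 family. Mirlet7c-2 was exceeded 23.6-fold and 27.5-fold by Mirlet7b.

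Mir125b-1 and Mir125b-2 share a mature form with each other. They stood nearer in level to the let-7 copies beside them than Mir100 and Mir99a did, most of all Mir125b-1. Of the summed counts of Mirlet7a-2 and Mir125b-1, Mirlet7a-2 held 49.6% (47.4% to 51.7%, an interval that holds equal shares) and 40.0% (38.3% to 41.7%). Mirlet7c-1 took 77.2% of its counts with Mir125b-2 in replicate 1 and 70.3% in replicate 2. Mirlet7f-2 was the only duplicated let-7 gene above a single-copy neighbour, with 69.1% and 73.9% of its counts with Mir98. All 4 hairpins of single-copy neighbours of the miR-99 and let-7 families at these loci held no 22-base window found in another counted hairpin. Mir98 held none either, whereas Mir125b-1 and Mir125b-2 each held 3 windows shared with each other. Whether shared windows bear on these levels was not tested.

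The libraries differed for each of the 6 genes, with both let-7f genes higher and all let-7a and let-7c genes lower in replicate 2. Counts were set against the ratio of the TMM-scaled library sizes with an exact binomial test, adjusted by Benjamini-Hochberg over the 340 detected genes. Of the 6 genes, 6 passed at 0.05. Of all detected genes 72.1% did, 34.1% as higher and 37.9% as lower in replicate 2, so such a call was common and says little about the let-7 copies. The balance over all detected genes turned with the scaling, from 97 higher and 146 lower under total counts to 124 higher and 113 lower under DESeq2 size factors, whereas the 6 let-7 genes kept their directions under both. The test compares 2 libraries against counting error and says nothing of conditions or animals in general.

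Mirlet7f-2 was 1.40-fold higher in replicate 2 (log2 ratio 0.48, exact 95% interval 0.46 to 0.51) and Mirlet7f-1 1.30-fold (log2 ratio 0.38, interval 0.25 to 0.52). Mirlet7a-1 was 1.43-fold lower (log2 ratio -0.52, interval -0.60 to -0.44; exact binomial test, adjusted p = 9.01e-36). Mirlet7c-2 was 1.34-fold lower (log2 ratio -0.42), Mirlet7a-2 1.25-fold (-0.32) and Mirlet7c-1 1.14-fold (-0.19; exact binomial test, adjusted p = 5.90e-05). These differences were of ordinary size for the libraries. The median absolute log2 ratio was 0.40 over the 6 genes and 0.54 over all detected genes, whose log2 ratios had an SD of 0.92, and the common dispersion of edgeR gave a biological coefficient of variation of 0.416. Marker genes of several cell types differed between the libraries as well. Of 6 cardiac muscle genes tested, 3 were higher and 1 was lower in replicate 2, with log2 ratios from -1.34 to 2.26 over the 6. The ratios ran from -0.80 to 0.32 over 3 endothelial genes, from 0.38 to 0.81 over 2 of smooth muscle, from -0.07 to 0.66 over 2 erythroid and from -0.12 to 2.09 over 3 leukocyte genes. Their part in the let-7 differences was not tested.

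**Figure D4:**
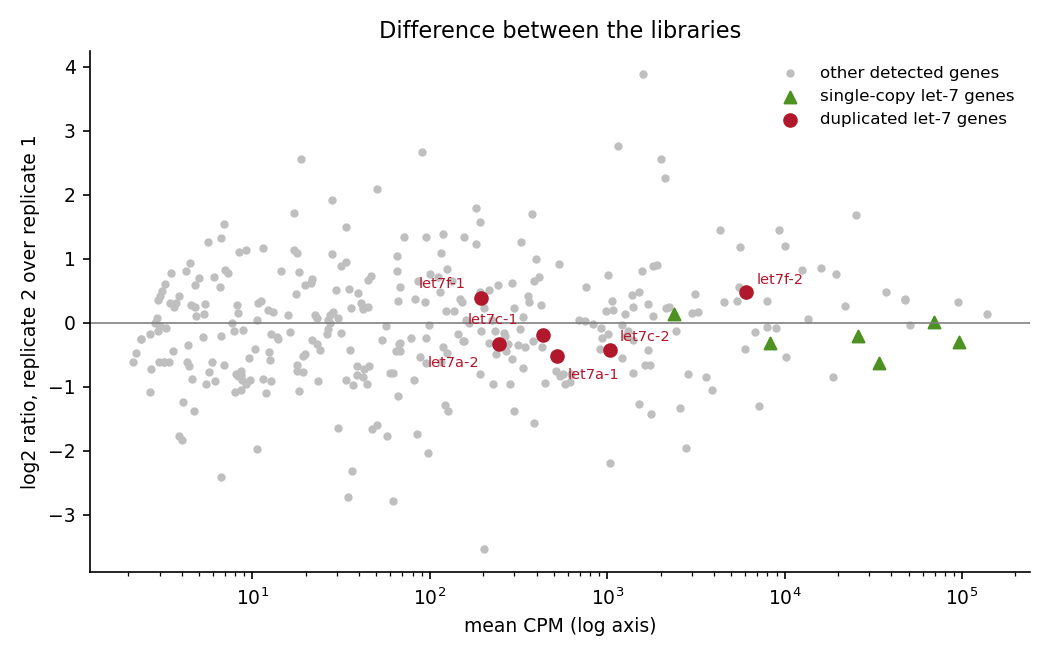
Log2 ratio of replicate 2 over replicate 1 against mean CPM (log axis) for the 340 detected genes, with duplicated let-7 genes in red, single-copy let-7 genes as green triangles and other genes in grey. The 6 red points lie between -0.52 and 0.48, within the spread of the grey points.

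Mirlet7a-1 and Mirlet7f-1, whose log2 ratios were opposite in sign under each scaling, lie in 1 locus. Their unscaled counts were both higher in replicate 2, the deeper library. Shares of their summed counts do not depend on library scaling, but show only how the genes moved relative to each other. Of the counts of both genes, Mirlet7a-1 held 78.2% (76.7% to 79.7%) in replicate 1 and 65.7% (64.2% to 67.2%) in replicate 2. Its share fell by 12.5 points (Fisher's exact test, two-sided, adjusted over 9 comparisons of neighbours, p = 6.38e-30). Fisher's test covers counting error only. All 9 comparisons had an adjusted p of 0.0115 or lower by this test, so such a result was common and says little about 1 pair. Mirlet7d of the same locus was lower in replicate 2 with TMM (log2 ratio -0.62). Against Mirlet7d, the share of Mirlet7f-1 rose from 0.410% to 0.822% (Fisher's exact test, adjusted p = 1.39e-50), and that of Mirlet7a-1 from 1.46% to 1.57% (adjusted p = 0.0115).

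At the other loci each share moved by fewer points than that of Mirlet7a-1 with Mirlet7f-1. Very small shares can move by few points only, so points do not rank the changes. Mirlet7f-2 gained 4.73 points against Mir98 (adjusted p = 1.63e-47, Fisher's exact test). Mir98 itself had a log2 ratio of 0.15 with TMM and of 0.0031 under total counts (exact binomial test, adjusted p = 0.899), with nearly the same CPM in both libraries. Against Mir125b-1 the share of Mirlet7a-2 fell by 9.58 points (adjusted p = 7.62e-12), and against Mir125b-2 that of Mirlet7c-1 fell by 6.90 points (adjusted p = 8.47e-09). Mir125b-1 and Mir125b-2 had log2 ratios of 0.24 and 0.33, against -0.15 for Mir100 and -0.03 for Mir99a. Under total counts Mir125b-1 (0.09) no longer passed (exact binomial test, adjusted p = 0.115), and under DESeq2 size factors Mir99a turned to 0.04. The shares above do not depend on the scaling. Mirlet7c-2 and Mirlet7b were both lower, with log2 ratios of -0.42 and -0.20. The share of Mirlet7c-2 against Mirlet7b fell by 0.557 points (adjusted p = 2.91e-13), that of Mirlet7a-2 against Mir100 fell by 0.411 points (adjusted p = 0.00386) and that of Mirlet7c-1 against Mir99a fell by 0.0883 points (adjusted p = 0.000932).

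Of the 6 single-copy let-7 genes, 4 were called lower and 2 higher in replicate 2 with TMM, and the split moved with the scaling. Mirlet7g had a log2 ratio of 0.02 with TMM and -0.12 under total counts, where 5 of the 6 were called lower and 0 higher. Under DESeq2 size factors 4 were lower and 2 higher. The median log2 ratio with TMM was -0.25, beside -0.26 for the duplicated genes and -0.05 over all detected genes.

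**Figure D5:**
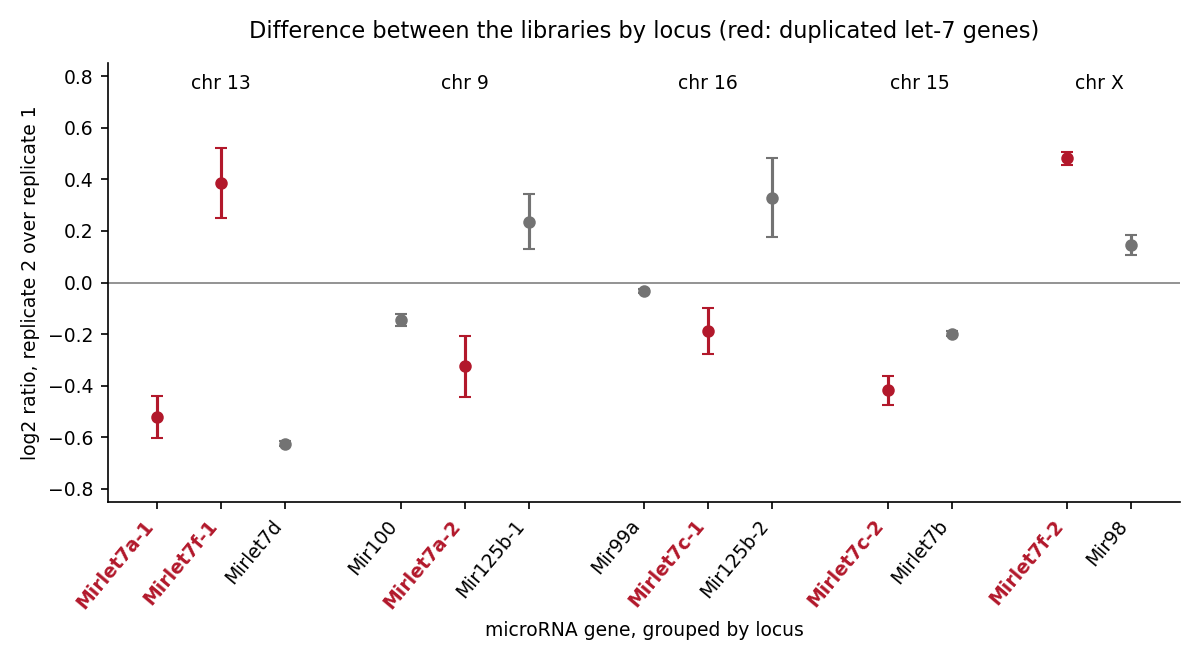
Log2 ratio of replicate 2 over replicate 1, with exact 95% intervals, for the 6 duplicated let-7 genes (red) and their neighbours (grey) at the 5 loci. On chromosome 13 Mirlet7f-1 (0.38) is above 0 while Mirlet7a-1 (-0.52) and Mirlet7d (-0.62) are below.

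Mirlet7f-1 is also the copy whose count depends on the column read. The annotation places the microRNA gene Gm24111 on the opposite strand over the whole hairpin (chromosome 13, 48537825 to 48537921, plus strand). In the column that disregards strand Mirlet7f-1 had 0 counts in each library, and in the column of the opposite strand its 665 and 1323 counts stood under Gm24111. Gm24111 had no count of its own on its strand. The other 5 copies had the same count in both columns and 0 on the opposite strand.

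The genes with the most similar levels, by Euclidean distance in log2(CPM + 1) over the 2 libraries, were Mir125a for Mirlet7f-2 (distance 0.0447; 5342 and 6540 CPM) and Mir1306 for Mirlet7f-1 (0.0808). They were Mir1839 for Mirlet7c-2 (0.177), Mir296 for Mirlet7a-1 (0.176), Mir210 for Mirlet7c-1 (0.136) and Mir501 for Mirlet7a-2 (0.153). With 2 libraries such closeness describes these levels only.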

How the data were processed

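MicroRNA sequencing reads of 2 heart libraries were used, 1 per labelled replicate. The authors deposited raw read counts per gene, on mm10 with annotation M21 per the deposited text files. No aligner or counting program is named by the sources used here. Each deposited table has 3 columns of counts without names. From their sums they were taken as both strands, gene strand and opposite strand, and the gene strand was used. The 4 rows naming no gene stayed out of totals. Reads with several mapping positions were 36.8% and 48.1% of all reads in replicates 1 and 2, unmapped reads 16.0% and 11.5%.

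Names, positions and hairpins came from GENCODE M21 and mature arms from RefSeq (GRCm38.p6). The ratio of replicate 2 over replicate 1 used TMM factors of edgeR 4.0.16 over all genes with a count and a prior of 0.5 counts. An exact two-sided binomial test, with Benjamini-Hochberg adjustment over the 340 detected genes, was run with scipy 1.17.1. The code was tried on simulated counts with counting error only. Such counts lack the further spread between these libraries, so the trial says nothing of calls under that spread. Shares carry exact Clopper-Pearson 95% intervals. Because there is 1 group, no model across conditions could be fitted.

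The members and lists were chosen with earlier results of these data known. Named genes are the 6 members, the other let-7 genes, their cluster neighbours and for each member the gene nearest in level. Mirlet7k, on the list, was not matched by name and was not analysed here. Alternatives were other scalings (DESeq2 1.42.0 size factors, total counts), no filter, a prior of 5, the column of both strands, other denominators, other window lengths and each library alone.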

Additional observations from a re-analysis of the deposited data

How the results depend on the processing

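The direction and call of all 6 log2 ratios held under total counts, DESeq2 size factors, no filter on low counts and a prior of 5, and in the column of both strands for the 5 genes with counts there. The directions of Mirlet7g and Mir99a and the calls of Mir98 and Mir125b-1 did not hold under every scaling, an alternative added for these genes after seeing the data. Against TMM, total counts lowered every log2 ratio by 0.14 and DESeq2 size factors raised it by 0.08. With the column of both strands Mirlet7f-1 had 0 CPM and 0% of its pair, and 1 copy in place of 2 was called higher in replicate 2. The same column raised the mean CPM to 712 for Mirlet7a-1, 335 for Mirlet7a-2, 596 for Mirlet7c-1, 1411 for Mirlet7c-2 and 8292 for Mirlet7f-2, since its total is smaller. Per 1000000 of all reads the means were 210 for Mirlet7a-1, 98.3 for Mirlet7a-2, 174 for Mirlet7c-1, 415 for Mirlet7c-2, 76.5 for Mirlet7f-1 and 2380 for Mirlet7f-2. The share of the 6 genes was 0.335% of all reads and 0.409% of gene counts and reads with several positions. With windows of 24 bases 100% were found once in Mirlet7a-2, Mirlet7c-1, Mirlet7f-1 and Mirlet7f-2. Defining a shared form by 20 common bases gave 6.99% of such genes detected, at a median of 86.3 CPM. Counting a mature form inside another hairpin, a definition added after seeing the data, gave 12.7% and 82.3 CPM. Under both definitions the comparison with the other genes turned for the detected share and the median of mean CPM. Both also took in genes with no listed form. Over genes with a listed form alone, a mature form inside another hairpin did not turn the detected share. For a mature form inside another hairpin, the order of the medians did not turn within either library. With 2 libraries, leaving out one only returns the value of the other and is no check of stability. Leaving out a library leaves no ratio between libraries. No paired analysis was possible because there is 1 group.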
